A study of Mus musculus with 20 samples.

Results

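Syntaxin 3 and 7 of its relatives and partners were followed through the 4 groups of a mouse striatum RNA-seq experiment. The 8 genes, Stx1a, Stx2, Stx3, Snap23, Snap25, Vamp1, Vamp2 and Vamp3, were picked by symbol from the 39179 genes of the count tables. All 8 passed the expression threshold, as did 14792 genes in total (above 1 CPM, the count scaled to a common library size, in 3 or more of the mice). They were picked with the difference between the lines already known, in which Stx3 stood near the top. The line differences of the 8 genes are therefore given as a description with their errors and without a test. The amphetamine effect, the interaction and the variation among mice within groups had no part in the choice, and these were tested.

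The mice were adult males, approximately 6.5 months old, from generation 17 of a breeding experiment that started from an intercross of 8 inbred strains. The High-Active line was selected for distance traveled in the home cage, and the Control line was bred at random. On the last day mice of each line were injected with saline or with 0.25 mg/kg amphetamine, and the whole striatum was collected 2 hours later, with 5 mice in each of the 4 groups. Groups are named by line and injection. There was 1 line of each kind, so selection and genetic drift cannot be told apart. Parents named in the labels were shared by some mice, with 8 families among the 10 Control mice and 5 among the 10 High-Active mice. Reads counted on genes ranged from 32388971 to 53710713 per mouse.

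SNARE proteins bring a vesicle and its target membrane together by winding into a bundle of helices. A syntaxin and a SNAP-25 family protein lie on the plasma membrane, a VAMP (synaptobrevin) lies on the vesicle, and calcium triggers the last step of fusion through synaptotagmins. Syntaxin 1A, SNAP-25 and VAMP2 form the classical complex for transmitter release at nerve terminals. Syntaxin 3 is best known from ribbon synapses of the retina, from apical transport in epithelia and from membrane delivery in dendrites and growing neurites. Messenger RNA was measured here, not protein.

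Stx3 (ENSMUSG00000041488) lies on the minus strand of chromosome 19 from 11775118 to 11819403 in GRCm38, and Stx1a (ENSMUSG00000007207) on the plus strand of chromosome 5 from 135023482 to 135051100. Both are protein-coding. These were the 2 members with the largest line differences, of opposite sign, and their RefSeq promoters (GRCm38.p6, 250 bases before to 50 after the start) are shown 5′ to 3′ on the strand of the gene. Capitals mark GGGCGG, known as the GC box, on either strand. They also mark the letters of the TATA box, TATAAA, likewise on either strand.
Stx3, chr19:11819354-11819653, minus strand: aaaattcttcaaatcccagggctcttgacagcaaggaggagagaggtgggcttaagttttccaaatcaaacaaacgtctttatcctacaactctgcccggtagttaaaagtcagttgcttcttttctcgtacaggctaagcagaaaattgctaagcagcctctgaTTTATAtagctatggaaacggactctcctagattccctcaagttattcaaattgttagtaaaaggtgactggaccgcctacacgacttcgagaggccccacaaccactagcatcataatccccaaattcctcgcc
Stx1a, chr5:135023232-135023531, plus strand: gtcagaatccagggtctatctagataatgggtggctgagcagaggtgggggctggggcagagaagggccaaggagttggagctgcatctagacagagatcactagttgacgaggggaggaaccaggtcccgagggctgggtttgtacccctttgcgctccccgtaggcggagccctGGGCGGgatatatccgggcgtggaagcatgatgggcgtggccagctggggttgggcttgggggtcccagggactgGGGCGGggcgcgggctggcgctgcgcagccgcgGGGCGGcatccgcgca
The Stx3 promoter was 44.0% GC with 8 CpG dinucleotides, no GC box and 1 TATAAA on the reverse strand. The Stx1a promoter was 66.3% GC with 19 CpG and 3 GC boxes, and held no TATAAA. Of 32851 promoters of this length, 35.7% held a GC box and 13.6% held a TATAAA, with a median GC content of 52.7%. Neither sequence held a cAMP response element (TGACGTCA, in 1.79% of promoters), an E-box (CACGTG, 7.15%) or a CCAAT box (CCAAT, 37.4%). These are matches of letters only.

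Stx3 mRNA was higher in High-Active mice, in every mouse and under both injections. In the Control saline mice the CPM of Stx3 were 22.1, 23.1, 23.8, 25.6 and 26.6, and in the High-Active saline mice they were 29.1, 33.9, 34.0, 36.9 and 39.2. In the Control amphetamine mice they were 20.0, 20.4, 20.8, 22.2 and 24.0, and in the High-Active amphetamine mice they were 32.0, 36.1, 36.3, 37.3 and 38.3. All 10 High-Active mice lay above all 10 Control mice. The lowest High-Active mouse (mouse 483) and the highest Control mouse (mouse 469) were both saline mice, and they were 0.13 apart on the log2 scale. Control mice averaged 22.9 ± 2.21 CPM and High-Active mice 35.3 ± 3.09 CPM (SD, n = 10 each), from 694 to 2124 reads per mouse.

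The log2 fold change of Stx3 (High-Active minus Control, averaged over both injections) was 0.63 with a standard error of 0.054, or 1.55-fold. By size it was not exceptional, since 450 of the 14792 genes tested had a log2 fold change at least as high. Complete separation of the lines was rare, with 0.142% of all genes higher in every High-Active mouse (21 genes), and 6 genes had a wider gap than Stx3. Only Stx3 among the 8 members separated the lines (0.264% of all genes did so in either direction). In saline mice the log2 fold change of Stx3 was 0.51 (SE 0.077) and in amphetamine mice it was 0.75 (SE 0.077).

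Every family belonged to a single line, so the family means of Stx3 had to lie apart once all mice did. The mean log2 CPM of Stx3 per family lay between 4.35 and 4.74 in the 8 Control families and between 5.06 and 5.18 in the 5 High-Active families. Within families of several mice the range was at most 0.25 in Control (mice 409 and 411) and at most 0.40 in High-Active mice (mice 483 and 487). When the counts of siblings were pooled into 1 sample per family, the line difference of Stx3 was 0.62 (SE 0.061).

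**Figure D1:**
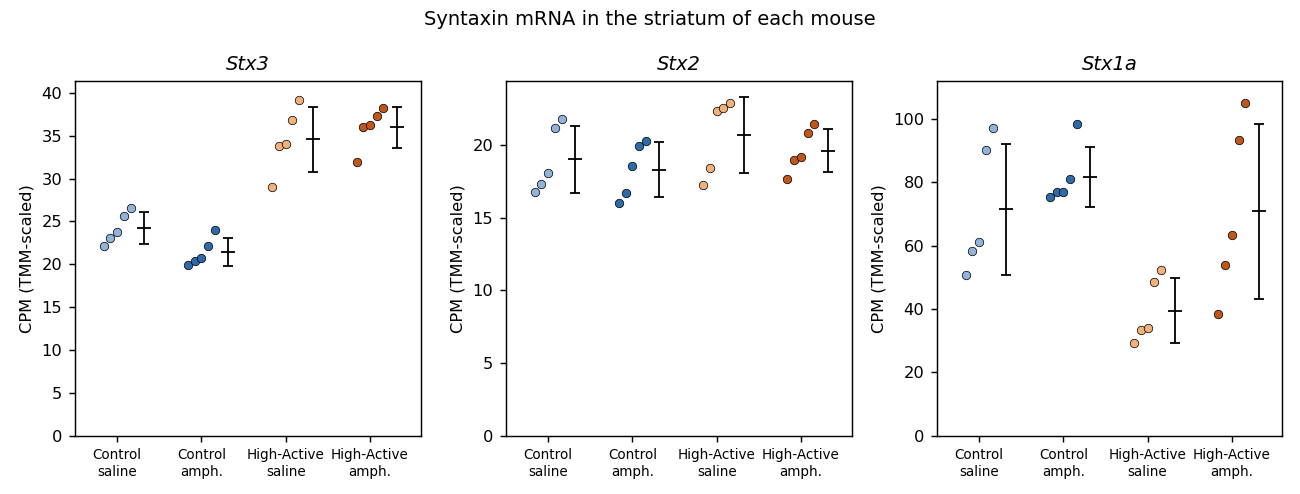
CPM (TMM-scaled, linear axis from 0) of Stx3, Stx2 and Stx1a by group, with 1 point per mouse (n = 5 per group) and the group mean with its SD as a bar to the right. High-Active mice lie above all Control mice in Stx3, the lines overlap in Stx2, and Stx1a spreads widely, from 29.2 to 105 CPM within the High-Active line.

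The other plasma membrane syntaxins did not follow Stx3. Stx1a, the syntaxin of classical transmitter release, had the next largest line difference of the 8 genes, and it was in the other direction. In the Control saline mice its CPM were 50.8, 58.2, 61.0, 90.3 and 97.0, and in the High-Active saline mice 29.2, 33.3, 34.1, 48.4 and 52.3. In the Control amphetamine mice its CPM were 75.2, 76.9, 77.0, 81.0 and 98.4, and in the High-Active amphetamine mice 38.5, 54.0, 63.5, 93.4 and 105. The saline groups overlapped by a single High-Active mouse (mouse 886), while 2 of 5 High-Active amphetamine mice lay above the Control median. The line difference averaged -0.53 (SE 0.17), with -0.86 (SE 0.24) in saline and -0.20 (SE 0.24) in amphetamine mice. With counts pooled by family it was -0.32 (SE 0.17).

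Stx2, which like syntaxin 3 is expressed widely outside the nervous system, was at 16.7, 17.3, 18.1, 21.2 and 21.8 CPM in Control saline and at 17.3, 18.4, 22.3, 22.5 and 22.9 CPM in High-Active saline mice. It was at 16.0, 16.7, 18.6, 19.9 and 20.3 CPM in Control amphetamine and at 17.7, 19.0, 19.2, 20.8 and 21.4 CPM in High-Active amphetamine mice. The lines overlapped under both injections, although 8 of 10 High-Active mice were above the Control median. Its log2 fold change was 0.11 (SE 0.069, 95% interval -0.023 to 0.25).

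Levels were then compared per length, as RPKM (CPM divided by the exon length in kilobases). Stx3 and Stx2 were level in Control mice, at 4.00 ± 0.39 and 4.07 ± 0.44 RPKM (SD, n = 10), with Stx3 the higher of the pair in 5 of 10 mice. In High-Active mice they were at 6.18 ± 0.54 and 4.40 ± 0.46 RPKM, and Stx3 was higher in 10 of 10.

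Both SNAP-25 family members were on average lower in High-Active mice. Snap25, the neuronal member, had CPM of 1472, 1519, 1622, 1699 and 1822 in Control saline and of 1294, 1308, 1359, 1375 and 1392 in High-Active saline mice. In the amphetamine mice it had CPM of 1484, 1620, 1640, 1668 and 1768 in Control and of 1361, 1428, 1609, 1756 and 1928 in High-Active mice. The saline groups did not overlap, as was the case for 4.23% of all genes, and the amphetamine groups did. Stx3 was the only member apart in the amphetamine mice, as were 2.94% of all genes. The line difference of Snap25 was -0.15 (SE 0.057) on average, -0.27 (SE 0.081) in saline and -0.018 (SE 0.081) in amphetamine mice.

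Snap23, the form found in most cell types, was much scarcer, at 12.7, 13.3, 15.1, 15.1 and 15.4 CPM in Control saline and 11.1, 12.2, 12.3, 14.0 and 14.2 CPM in High-Active saline mice. After amphetamine it was at 12.3, 13.0, 13.1, 13.2 and 15.6 CPM in Control and at 10.5, 11.1, 11.4, 12.8 and 13.6 CPM in High-Active mice. The groups overlapped under both injections. Its line difference was nearly the same in both, -0.17 (SE 0.089) and -0.18 (SE 0.089), and -0.17 (SE 0.063) on average. Per length Snap23 made up 1.33% ± 0.19 of the summed RPKM of the pair (SD, n = 20).

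The VAMPs differed little between the lines. Vamp2, the main synaptic vesicle VAMP of the forebrain, had CPM of 738, 759, 779, 825 and 854 in Control saline and of 686, 714, 726, 732 and 785 in High-Active saline mice. After amphetamine it had CPM of 780, 789, 802, 831 and 841 in Control and of 747, 755, 778, 781 and 868 in High-Active mice. The groups overlapped, with 1 of 10 High-Active mice above the Control median. Its log2 fold change was -0.080 (SE 0.036).

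Vamp1, a second neuronal VAMP, varied widely among mice of a group. It ranged from 96.9 to 133 CPM in Control saline, from 69.0 to 126 in Control amphetamine, from 58.6 to 141 in High-Active saline and from 96.5 to 157 in High-Active amphetamine mice. Its log2 fold change was 0.11 (SE 0.14), with -0.12 (SE 0.20) in saline and 0.33 (SE 0.20) in amphetamine mice. Vamp3 (cellubrevin), the VAMP of recycling endosomes, lay between 26.0 and 34.4 CPM in Control and between 29.4 and 33.2 CPM in High-Active mice, a log2 fold change of 0.046 (SE 0.037, 95% interval -0.027 to 0.12). Vamp3 overlaps Camta1 on the same strand, and reads that fall on both genes are left uncounted by the counting program. Of its transcript stretches of 100 bases, the read length, 2.40% also occur in other genes, against none for the other 7 members. Vamp1 overlaps Tapbpl on the opposite strand, which had 4.73 CPM on average.

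**Figure D2:**
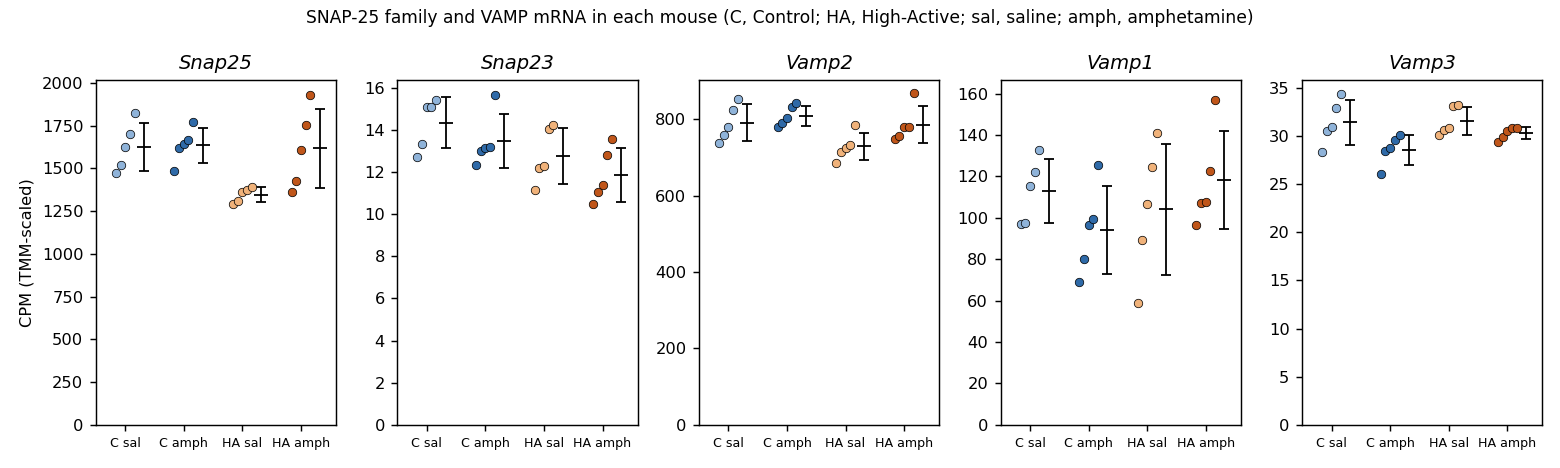
CPM (TMM-scaled, linear axes from 0) of Snap25, Snap23, Vamp2, Vamp1 and Vamp3 by group, with 1 point per mouse (n = 5 per group) and the group mean with its SD. The saline groups are apart in Snap25 alone of these 5 genes, and all 5 overlap between the amphetamine groups.

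In order of RPKM over all 20 mice, the members ran from Snap25 (229 ± 27.1, SD) and Vamp2 (204 ± 12.7) through Stx1a (24.7 ± 8.85), Vamp1 (10.6 ± 2.34) and Vamp3 (10.5 ± 0.67) to Stx3 (5.09 ± 1.21), Stx2 (4.23 ± 0.47) and Snap23 (3.05 ± 0.35). The ranges of Snap25 and Vamp2 overlapped, although Snap25 was higher in 18 of 20 mice. Vamp1 and Vamp3 could not be ordered, with Vamp1 higher in 11 of 20. The ratio of Stx3 to each other member does not depend on how the libraries were scaled. The ratio to Snap25, Snap23, Vamp2 and Vamp3 was higher in all 10 High-Active mice than in any Control mouse. For Stx2 this held in 9, for Stx1a in 8 and for Vamp1 in 7 of the 10. Stx3 by itself already separated the lines, so these counts follow largely from Stx3 and are no result about its partners. The share of all genes whose ratio to Stx3 separates the lines was not computed. The mean log2 ratio of Stx3 to another member was between 0.52 (Stx2) and 1.20 (Stx1a) higher in High-Active than in Control mice.

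**Figure D3:**
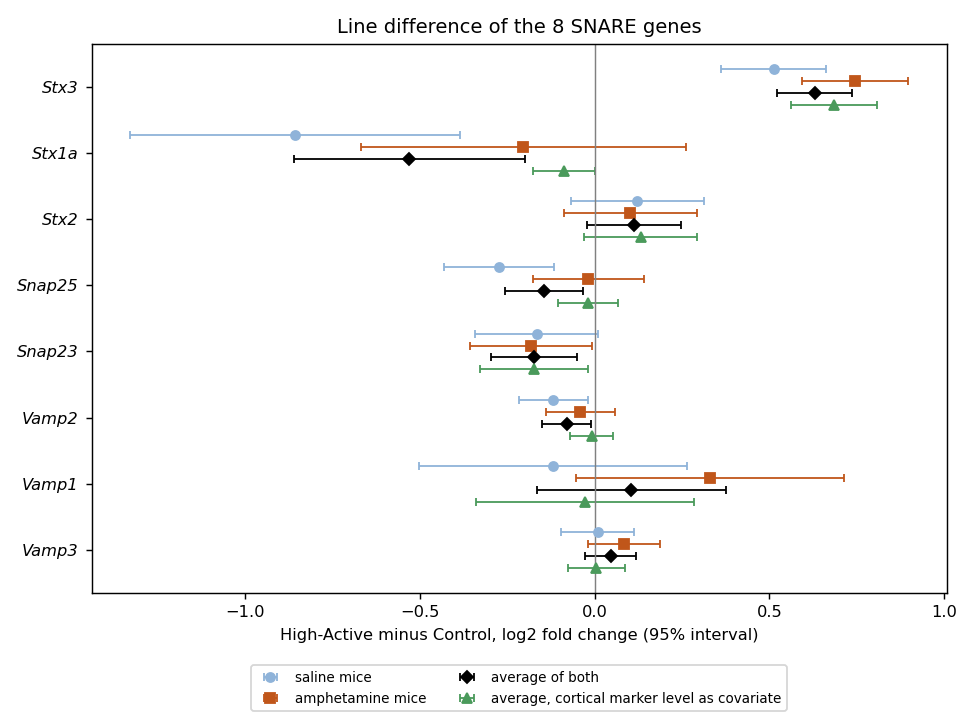
Log2 fold change between the lines (High-Active minus Control) of each member with its 95% interval, in saline mice, in amphetamine mice, averaged, and averaged with the cortical marker level as a covariate. Stx3 lies above 0 in all 4 estimates, from 0.51 to 0.75, while Stx1a, Snap25 and Vamp2 lie near 0 with the covariate.

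Cortical RNA moved with several members. The dissection separates striatum from the overlying cortex, and a list of 12 genes of cortical excitatory neurons was summed in each mouse. Their summed CPM ranged from 541 to 1105 in Control saline, 859 to 1151 in Control amphetamine, 350 to 537 in High-Active saline and 445 to 1264 in High-Active amphetamine mice. None of the 12 was at 0. A negative line difference was found in 10 of 12, with 4 called lower and 0 higher by the quasi-likelihood test (6.9% of all genes were called lower). After amphetamine 11 of 12 were higher (median log2 fold change 0.81). Slc17a7, the vesicular glutamate transporter of cortical neurons, ranged from 74.5 to 679 CPM across mice. The 11 markers of striatal projection neurons summed to 4453 to 7325 CPM, with 0 of 11 called between the lines by the quasi-likelihood test (2 had an unadjusted p under 0.05), and 10 of 11 had a negative line difference (median log2 fold change -0.12). Of all genes 14.5% were called between the lines, and markers of other cell types are set beside that share. A single call among 8 markers is close to it. Of 8 astrocyte markers, which summed to 1755 to 1934 CPM in Control and 1751 to 2186 CPM in High-Active mice, 4 were called higher and 1 lower in High-Active mice (median 0.14). Of 8 oligodendrocyte markers, which summed to 2265 to 3737 and 2982 to 3955 CPM, 1 was called higher (median 0.15). Of 8 microglia markers 1 was called higher and 2 lower (median -0.060). They summed to 268 to 328 CPM in Control and 255 to 320 CPM in High-Active mice. Of 8 endothelial and pericyte markers 1 was called higher (median 0.078). Their sum was higher in most High-Active mice, at 241 to 308 CPM against 189 to 257 CPM in Control mice. None of 8 choroid plexus markers was called by this test (0 at an unadjusted p under 0.05), although all 8 had a positive line difference (median 0.77) and their sum ranged from 22.3 to 917 CPM. The part of these cell types in the line differences of the members was not tested, apart from the covariate fits of cortical and oligodendrocyte markers. In bulk tissue, fewer cells of a type and less RNA per cell cannot be told apart.

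Within groups, Stx1a followed the cortical marker level closely. After removing group means, Pearson's r was 0.98 and Spearman's rho 0.96 over the 20 mice (permutation within groups, adjusted p = 8.0e-05 for each, from the smallest p that these permutations can give). The same held for Snap25 (r = 0.82 and rho = 0.74, adjusted p = 0.0015 and 0.0087, permutation) and Vamp2 (r = 0.80 and rho = 0.81, adjusted p = 0.0015 and 0.0020, permutation), the other components of the classical complex. For Stx3 r was 0.40 and rho 0.38 (adjusted p = 0.14 and 0.17, permutation). Vamp3 had a negative r of -0.48 and rho of -0.43 (adjusted p = 0.061 and 0.16, permutation), and r lay between -0.35 and 0.11 for Stx2, Snap23 and Vamp1. Without the 2 mice farthest from the median marker level (415 and 872), r was 0.97 for Stx1a, 0.71 for Snap25, 0.80 for Vamp2 and 0.29 for Stx3. These are 8 relations, adjusted together.

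The cortical marker level was then added to the fit as a covariate. The line difference of Stx3 was 0.69 (SE 0.063) with it and 0.63 without it. That of Stx1a was -0.087 (SE 0.045), that of Snap25 -0.018 (SE 0.043) and that of Vamp2 -0.0087 (SE 0.031). Snap23 was at -0.17 (SE 0.079), as without the covariate. The number of genes called between the lines was 396 (2.68%) with the covariate and 2149 without it. The marker level itself differed between the groups, so a change of a member's own RNA in step with it cannot be told apart from tissue content in this fit.

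**Figure D4:**
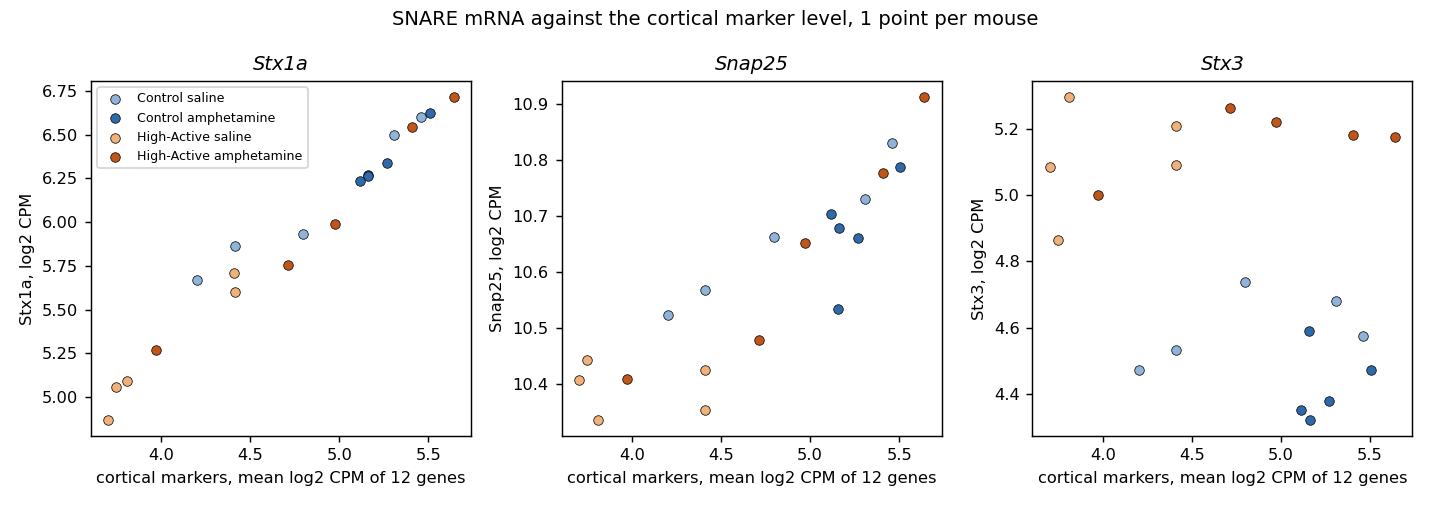
Log2 CPM of Stx1a, Snap25 and Stx3 against the mean log2 CPM of the 12 cortical marker genes, with 1 point per mouse (n = 20) colored by group. Stx1a and Snap25 rise with the marker level across all groups, while Stx3 is split by line over the marker levels that both lines cover. At the lowest and the highest marker levels only High-Active mice are present.

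By edgeR's quasi-likelihood test amphetamine changed none of the members beyond the adjusted threshold, while other tools called Stx1a, which had the largest response. The quasi-likelihood test called 0 of 14792 genes (0.0%) for the amphetamine effect, with 1844 (12.5%) at an unadjusted p under 0.05. DESeq2 called 391 genes, the likelihood-ratio test with robust dispersions 458 and limma-voom with family as a block 0. Stx1a had a log2 fold change of 0.52 (SE 0.17, adjusted p = 0.23 by edgeR's quasi-likelihood test), with an adjusted p of 0.081 by DESeq2 and 0.013 by the likelihood-ratio test. Without mouse 415 it was 0.60 (adjusted p = 0.077 by the quasi-likelihood test). The response was 0.85 (SE 0.24) in High-Active and 0.19 (SE 0.24) in Control mice. With the cortical marker level in the fit, the amphetamine effect on Stx1a was -0.062 (SE 0.049).

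For Stx3 the amphetamine effect was -0.060 (SE 0.054, 95% interval -0.17 to 0.046, adjusted p = 0.70 by edgeR's quasi-likelihood test). With the cortical marker level in the fit it was -0.13 (SE 0.067), and with cortical and oligodendrocyte markers -0.15 (SE 0.068, 95% interval -0.29 to -0.021), with an unadjusted p under 0.05 and an adjusted p of 0.93. Without covariates it was -0.18 (SE 0.077) in Control and 0.056 (SE 0.076) in High-Active mice. Snap25 had 0.14 (SE 0.057, adjusted p = 0.34) and Vamp3 had -0.099 (SE 0.037, adjusted p = 0.29), both with an unadjusted p under 0.05 and neither past the adjusted threshold. The remaining 4 members had log2 fold changes between -0.097 and 0.071, with adjusted p of 0.43 or more.

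The response to amphetamine did not differ between the lines beyond the adjusted threshold in any member. The interaction (High-Active minus Control response) was 0.23 for Stx3 (SE 0.11), 0.26 for Snap25 (SE 0.11) and 0.65 for Stx1a (SE 0.34), each with an adjusted p of 1.0 by edgeR's quasi-likelihood test. Stx3 and Snap25 had an unadjusted p under 0.05. With the cortical marker level in the fit the interactions were 0.18 for Stx3 (SE 0.11), 0.12 for Snap25 (SE 0.076) and 0.11 for Stx1a (SE 0.080), none with an unadjusted p under 0.05. With cortical and oligodendrocyte markers, Snap25 had 0.15 (SE 0.065) and Vamp1 0.60 (SE 0.28), both with an unadjusted p under 0.05 by the quasi-likelihood test. Stx3 had 0.16 (SE 0.11) and Stx1a 0.095 (SE 0.076) in that fit, and no member passed the adjusted threshold. Across all genes 0 were called (0.0%) and 440 (2.97%) had an unadjusted p under 0.05. DESeq2 called 0 genes, the likelihood-ratio test 6 and limma-voom 0. The somewhat larger line difference of Stx3 after amphetamine than after saline is thus not shown to be a difference between the conditions.

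Mice of a group with more Stx3 did not have detectably more or less of its partners. With group means removed, Pearson's r of Stx3 with the other 7 members lay between -0.21 (Vamp1) and 0.33 (Stx1a) over 20 mice, and Spearman's rho between -0.15 and 0.33. None passed the threshold (permutation within groups, adjusted p of 0.67 or more for r and 0.78 or more for rho). Without the 2 mice farthest in Stx3 (483 and 871), r lay between -0.47 (Vamp1) and 0.40 (Stx1a). Stx3 was also set against the distance traveled in the home cage before the injection. In Control mice r was 0.20 and rho 0.47 (n = 10, permutation p = 0.60 and 0.18, adjusted p = 0.60 and 0.36), and in High-Active mice r was 0.30 and rho 0.26 (n = 10, permutation p = 0.36 and 0.47, adjusted p = 0.60 and 0.47). Without the 2 mice farthest from the median distance, r was 0.57 in Control and -0.21 in High-Active mice.

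The genes whose log2 CPM varied most like Stx3 within groups, chosen as the 5 highest and 3 lowest Pearson's r over 20 mice, were not SNARE genes. The highest were P2ry6 (r = 0.82), a nucleotide receptor, Larp1b (0.80), Llgl2 (0.77), Snhg18 (0.75) and Layn (0.74). The lowest were Wfs1 (-0.74), Mettl6 (-0.71) and Zswim3 (-0.67). The 5 highest had mean levels of 0.82 to 1.88 CPM, close to the expression threshold, and such r values are a description of the extremes among 14792 genes.

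The rest of the SNARE machinery had line differences between -0.62 and 0.30. A list of 62 further genes found in the count tables was used, of which 59 were tested: other syntaxins, SNAP and VAMP proteins, SNAREs of the endoplasmic reticulum, Golgi and endosomes, syntaxin binding proteins, disassembly factors, complexins, calcium sensors and priming factors. By edgeR's quasi-likelihood test 7 of the 59 had an adjusted p under 0.1, against 14.5% of all genes, with 1 higher and 6 lower in High-Active mice (7.63% and 6.9% of all genes). The median log2 fold change of the 59 was -0.025, against -0.00093 over all genes. Averaged over both injections, none had a log2 fold change as large in size as the 0.629 of Stx3, with Cplx3 close at -0.621. Stx3 was chosen with its line difference known, so its place in this order is a description and no result. In saline mice alone the lowest complexin difference was -0.82, larger in size than the 0.51 of Stx3. In amphetamine mice the lowest complexin difference was -0.42, against 0.75 for Stx3. The nearest was Cplx3, a complexin, at -0.62 (SE 0.27, adjusted p = 0.15), which also had the largest amphetamine effect of the 59, 0.87 (SE 0.27, adjusted p = 0.22).

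Napb, the neuronal beta-SNAP that works with the ATPase NSF to take used SNARE complexes apart, was lower in High-Active mice with the smallest p of the list. It had 363 ± 28.0 CPM in Control and 281 ± 38.8 CPM in High-Active mice (SD, n = 10), a log2 fold change of -0.37 (SE 0.059, adjusted p = 0.0011). Napb stayed past the threshold in all 20 fits that left out 1 mouse and in all 9 other settings, including the cortical covariate (-0.32, adjusted p = 0.027). The other disassembly factors Napa, Napg and Nsf had log2 fold changes of -0.091, -0.098 and -0.015 with adjusted p of 0.12 or more. The calcium sensors Syt7 (-0.20, adjusted p = 0.020) and Syt1 (-0.15, adjusted p = 0.079), the complexin Cplx2 (-0.16, adjusted p = 0.099), the Golgi and endosome syntaxin Stx6 (-0.10, adjusted p = 0.098) and the endoplasmic reticulum SNARE Sec22b (-0.092, adjusted p = 0.077) were lower. Bet1, a SNARE of transport to the Golgi, was higher (0.16, adjusted p = 0.021). With the cortical covariate Napb alone of the 7 was called, and the others had log2 fold changes between -0.088 and 0.12.

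Among the relatives of syntaxin 3 on that list, the 10 other syntaxins tested had line differences between -0.10 and 0.051, and Stx6 alone was called. The 5 other SNAP and VAMP proteins tested had differences between -0.045 and 0.17 with 0 called by the quasi-likelihood test (0 at an unadjusted p under 0.05). The SM and syntaxin binding proteins, 12 genes in all, had 0 called by the same test (1 at an unadjusted p under 0.05) and differences between -0.083 and 0.30. No listed gene was called for the amphetamine effect or the interaction by the quasi-likelihood test, with 13 and 1 of 59 at an unadjusted p under 0.05. DESeq2 called 5 and the likelihood-ratio test 6 of the 59 for the amphetamine effect.

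The genes next to Stx3 on the chromosome were not called between the lines, and 2 farther ones were. Of the 17 tested genes that start within 1 Mb of the start of Stx3, 2 were called between the lines (11.8%, against 14.5% of all genes). The nearest, Mrpl16, a mitochondrial ribosomal protein, starts 49.0 kb downstream and had a log2 fold change of 0.033 (SE 0.047). Gm6365, Patl1 and Osbp, which start 59.0, 93.0 and 147 kb upstream, had differences of -0.041, -0.048 and -0.065. The called neighbors were Fam111a, which starts 726 kb upstream, at 0.65 (SE 0.21, adjusted p = 0.060) and Mpeg1, a macrophage gene, which starts 641 kb upstream, at -0.48 (SE 0.12, adjusted p = 0.026). Fam111a was low, with 1.34 ± 0.53 CPM in Control and 2.11 ± 0.47 CPM in High-Active mice (SD, n = 10), and its lines overlapped.

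**Figure D5:**
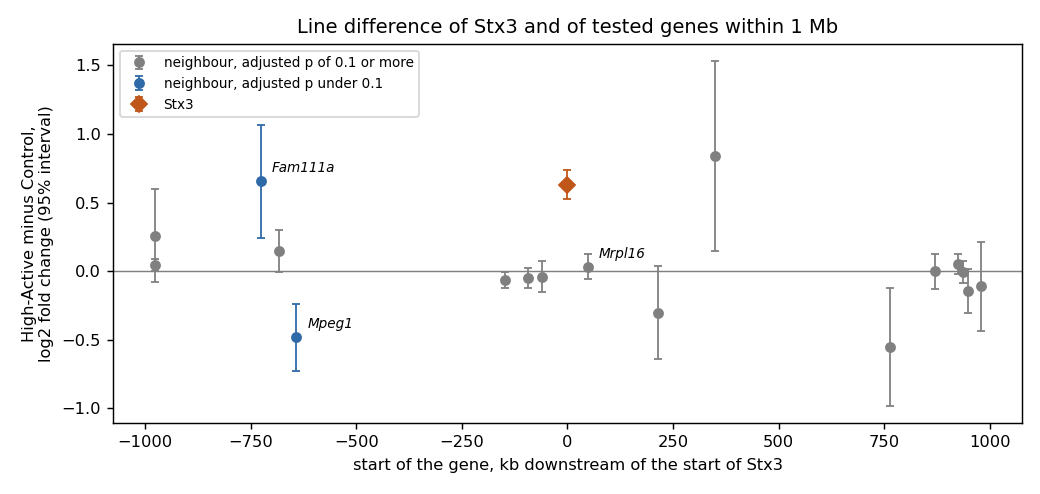
Log2 fold change between the lines (High-Active minus Control, 95% interval) of Stx3 and of the 17 tested genes within 1 Mb, against the distance of their starts in kb. The 4 nearest genes lie between -0.065 and 0.033, below the 0.63 of Stx3.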

How the data were processed

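RNA of the striatum of 20 male mice was sequenced as 100-base pairs from TruSeq stranded libraries. The authors aligned the reads to GRCm38 with TopHat2 2.0.10, counted reads per Ensembl 75 gene with HTSeq 0.6.1, and deposited these raw counts. The strand setting of the counting was not given in the sources used here. Between 16.0% and 17.5% of the reads in each table were on no single gene, and these lines were left out. Symbols, positions and exon lengths came from GENCODE M21, which held 37607 of the 39179 identifiers.

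Counts were tested with edgeR 4.0.16 (R 4.3.3): genes over 1 CPM in at least 3 mice, TMM normalization, separate means of the 4 groups, the quasi-likelihood test and Benjamini-Hochberg adjustment over 14792 genes with a threshold of 0.1. The script was tested on simulated data. Log2 CPM used a prior count of 2. RPKM divided CPM by exon length, and 95% intervals are 1.96 standard errors. Correlations used 100000 permutations of mice within groups or lines.

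Members and gene lists were chosen with earlier results of these data known. Named were the members, other SNARE machinery genes with an adjusted p under 0.1 (at most 12), the 5 genes most and 3 least like Stx3 in group-centered r, and called neighbors within 1 Mb. Cplx1, Cplx3, Napa, Napg, Nsf, Mrpl16, Gm6365, Patl1 and Osbp were named after their values were seen. Vamp7 was not analysed here, and Stx11, Stx19 and Cplx4 were below the threshold. Promoters were given for Stx1a, Stx2, Stx3, Snap23 and Vamp1. Alternatives were other normalization, filters, DESeq2 1.42.0, the likelihood-ratio test, limma-voom 3.58.1 with a block for family, counts summed by family, marker covariates, family as a block with siblings paired, and leaving out each mouse. P values measure the spread among mice of 1 pair of lines.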

Additional observations from a re-analysis of the deposited data

Results flagged for a closer look

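Each member was checked in each of the 4 groups for a mouse far from the other 4, by the gap to the nearest mouse over the range of the group (critical value 0.71). Of 32 checks, 2 exceeded it, and chance alone flags about 1 in 20. Both were in Control amphetamine mice. Snap23 was highest in mouse 457, at 3.97 log2 CPM (659 reads) against 3.73 in the next mouse, and without this mouse the line difference of Snap23 was -0.14. Stx1a was highest in mouse 407, at 6.62 log2 CPM (3092 reads) against 6.34 in the next mouse. Mouse 407 also had the highest cortical marker level of its group, a mean log2 CPM of 5.51, and the highest sum, 1151 CPM. No mouse stood apart in this way in Stx3.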

How the results depend on the processing

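The line differences of the members are descriptions, since they took part in the choice of the members. That of Stx3 lay between 0.60 and 0.66 in the 20 fits without 1 mouse, that of Stx1a was -0.32 with family sums and -0.087 with a cortical covariate, and that of Vamp1 turned to -0.025 with cortical and oligodendrocyte covariates and to -0.028 with the cortical one (the latter chosen after seeing the data). In the same pair of fits the amphetamine effect of Stx1a turned to -0.085 and -0.062, that of Vamp1 to 0.17 and 0.12, and that of Vamp2 to -0.0087 and -0.013, and that of Snap25 to -0.022 with the cortical covariate alone. Fits without 1 mouse moved the amphetamine effect of Vamp1 between -0.12 and 0.032, and the interaction of Snap23 between -0.068 and 0.045 and of Stx2 between -0.079 and 0.023. Stx1a was called for amphetamine by DESeq2, the likelihood-ratio test and the fit without mouse 415. The count of genes between the lines was 424 with both covariates, 396 with the cortical one and 600 with family sums, and 1381 (without mouse 415) to 2535 (without mouse 477) with 1 mouse left out. Among the other SNARE machinery genes 3 were called without a filter on low counts, 1 with both covariates, 1 with the cortical one and 2 with family sums, and 3 to 11 with 1 mouse left out (11 without mouse 477). The amphetamine effect had 391 genes by DESeq2 and 458 by the likelihood-ratio test (5 and 6 of the other SNARE genes), and 0 to 339 (0 to 4 of the SNARE genes) with 1 mouse left out, the most without mouse 415. The interaction had 6 genes by the likelihood-ratio test and 0 to 1 with 1 mouse left out. The cause of these shifts was not tested. Mice carry no shared replicate numbers, but 13 mice of 6 families had siblings under the other injection (4 mice in Control, 9 in High-Active). With family as a replicate block, a fit chosen after seeing the data in which the amphetamine effect is taken among siblings, 1 gene was called for amphetamine and 1 for the interaction. The amphetamine effect was then -0.044 (SE 0.089) for Stx3 and 0.47 (SE 0.29) for Stx1a and turned to 0.055 for Vamp1, and the interaction turned to 0.14 for Stx2 and 0.20 for Snap23, with no member called. A gene with 3 reads at the lowest depth has 0.093 CPM, far below every member.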

Other observations

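Neighbors of the other members were compared in the same way, within 1 Mb of the start of each gene. The share called between the lines was 21.4% for Snap23 (9 of 42 genes), 16.7% for Snap25 (1 of 6), 11.8% for Vamp3 (2 of 17), 10.3% for Vamp1 (4 of 39), 10.0% for Vamp2 (6 of 60), 2.86% for Stx1a (1 of 35) and 0.0% for Stx2 (0 of 19), beside 14.5% of all genes. Of the complexins, Cplx1 had the lowest p for the interaction on the SNARE machinery list (0.33, SE 0.092, adjusted p = 1.0 by edgeR's quasi-likelihood test). Its line difference was 0.25 (SE 0.065) in amphetamine mice and 0.083 (SE 0.046) on average.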
